A study of Mus musculus with 8 samples.

Results

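The genes described here encode the Wnt ligands and the proteins that export, receive, restrain and relay them. They were taken by gene symbol, by a rule that uses no measured value but was written with earlier results of these data known, and are 58 of the 28460 genes in the expression table. By role they are 19 ligands, 2 proteins of ligand export, 14 receptors, 8 secreted antagonists, 7 R-spondins and their receptors, 3 members of the destruction complex and 5 nuclear effectors. RNA-seq was carried out on testis cells from mice of mixed background at postnatal day 12, with 4 libraries from Brg1 cKO mice, in which Brg1 is conditionally knocked out, and 4 from Brg1 WT mice, called biological replicates by the submitters. Smarca4 encodes Brg1, a motor subunit of SWI/SNF chromatin remodellers. The sources used here do not give the recombinase driver, the deleted exons, or whether animals were pooled. The cells carry the label spermatogenic and were freed from testes with collagenase and trypsin and sieved, and no marker-based sort is named.

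In canonical Wnt signalling a ligand is given its lipid by Porcn, carried to the cell surface by Wls and bound there by a Frizzled receptor with Lrp5 or Lrp6. This stops the complex of Axin and Apc from marking β-catenin (Ctnnb1) for destruction, and β-catenin then works with the TCF/LEF DNA-binding proteins Tcf7, Lef1, Tcf7l1 and Tcf7l2. R-spondins, through Lgr receptors, keep Frizzled receptors at the surface, whereas most Sfrp and Dkk proteins hold ligands or co-receptors back. Other ligands, Wnt5a foremost, act mainly through Ror receptors and the planar polarity branch. In the mouse testis, Wnt6 made by Sertoli cells has been linked to the proliferation of undifferentiated spermatogonia.

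Smarca4, the targeted gene, had 111 to 129 CPM (estimated counts scaled to the size of each library) in the Brg1 cKO libraries and 338 to 357 CPM in the Brg1 WT libraries. Library totals ran from 20456700 to 32596000 estimated counts, so that 3 counts corresponded to 0.0917 to 0.148 CPM. The cells were not germ cells alone. Across 20 Sertoli cell markers the summed level was 7846 to 10330 CPM in Brg1 cKO and 6286 to 8003 CPM in Brg1 WT, and 9 were higher by the edgeR test described below, while none was lower at an adjusted or an unadjusted p under 0.05 or with DESeq2. Of 18 pan-germ cell markers 5 were lower with edgeR, 10 with DESeq2 and 14 at an unadjusted p under 0.05 in edgeR, with sums of 1992 to 2657 CPM in Brg1 cKO and 2685 to 3398 CPM in Brg1 WT. None of the 18 was higher at an adjusted p under 0.05 in either test, and 1 was at an unadjusted p under 0.05 with DESeq2. Brg1 WT replicates 1 and 2 stood apart from the other Brg1 WT libraries in 12 pachytene and spermatid markers, with sums of 302 and 268 CPM, against 212 and 192 CPM in replicates 3 and 4 and 139 to 155 CPM in Brg1 cKO. Their Sertoli cell sums were also the lowest, at 6286 and 6404 CPM against 7256 and 8003 CPM in replicates 3 and 4. Their pan-germ cell sums were the highest, at 3398 and 2987 CPM against 2685 and 2723 CPM. In cells measured in bulk, fewer cells of a type and less RNA per cell cannot be told apart.

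Of the 58 genes, 45 were abundant enough to be tested, and 11 had an adjusted p under 0.05 for the genotype difference (edgeR quasi-likelihood test, Benjamini-Hochberg adjustment over all 16059 genes tested). That is 24.4% of those tested, near the 20.6% of all tested genes that differed. Fzd1, Wnt5a, Wls, Ctnnb1 and Tcf7l2 were higher in Brg1 cKO, in a table where 8.79% of genes were higher. Lef1, Wnt3, Tcf7, Dkk3, Wnt9a and Wnt7b were lower, where 11.8% of all tested genes were lower. A share this close to that of all genes is not a result about the pathway as a whole. The median log2 fold change was 0.18 over the 45 genes and 0.01 over all tested genes, and the 45 values ran from -1.51 for Wnt3 to 0.92 for Wls. Wnt3, Wnt7b and Lef1 changed at least 2-fold.

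**Figure D1:**
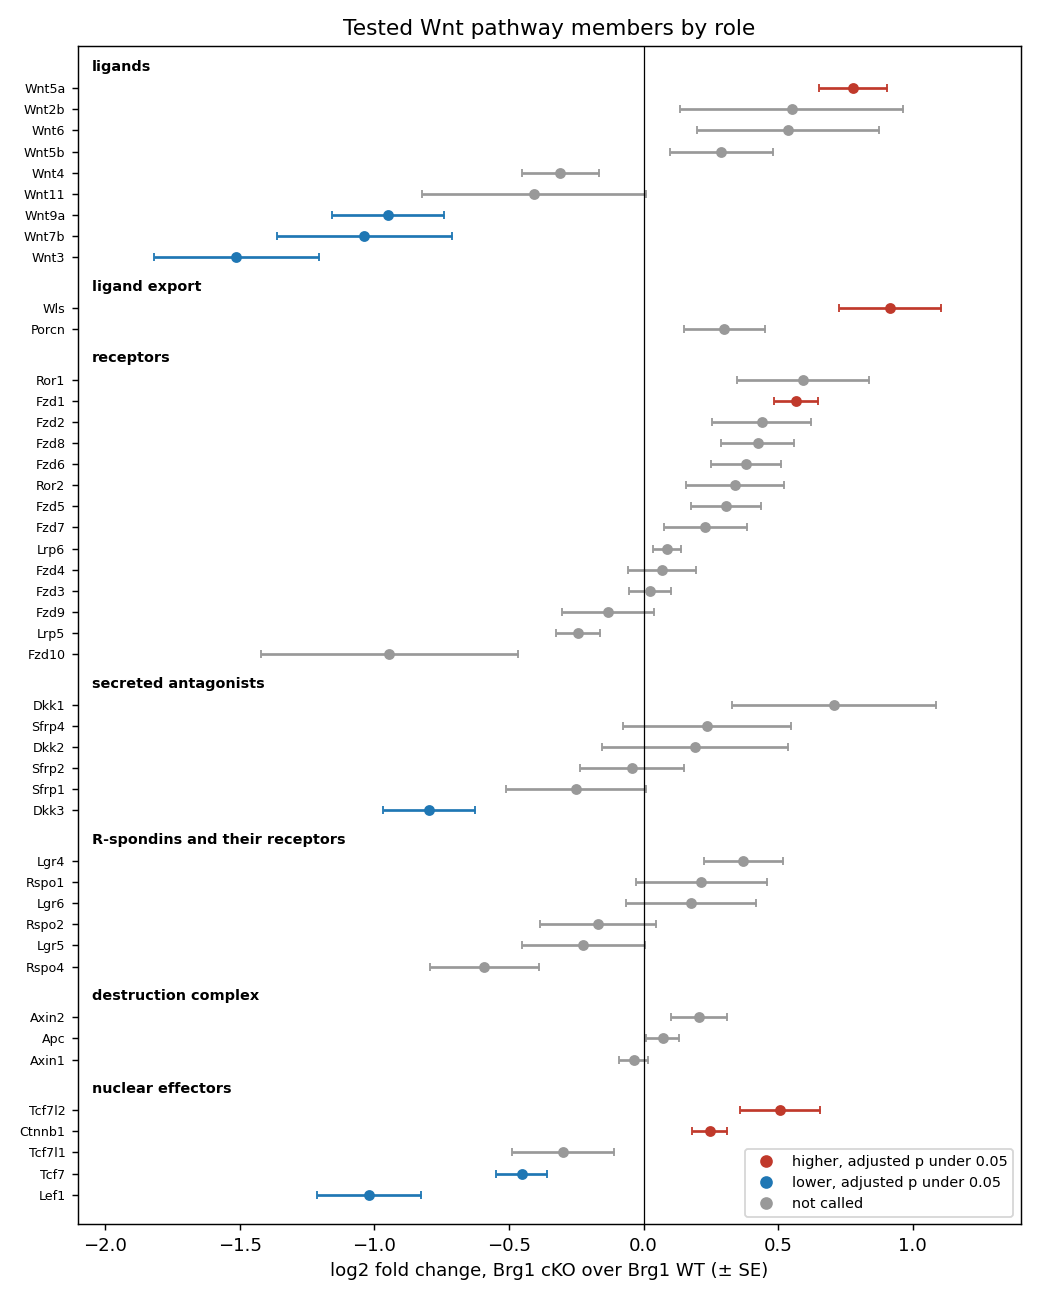
Log2 fold change, Brg1 cKO over Brg1 WT, of the 45 tested Wnt pathway genes grouped by role, with bars for the standard error; red marks genes that were higher, blue genes that were lower and grey genes that did not pass the test. The ligands spread to both sides, 11 of the 14 receptors lie above 0 (5 with the Sertoli cell markers as the unchanged level) with only Fzd1 called, and the nuclear effectors hold 2 higher and 2 lower genes.

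Among the 43 genes with a mean of at least 1 CPM over the 8 libraries, the values of the genotypes did not overlap in 12, or 27.9%, against 27.3% of all genes at that level. Of these, Wnt5a, Wls, Fzd1, Fzd6, Fzd8, Ctnnb1 and Tcf7l2 had every Brg1 cKO library above every Brg1 WT library. In Wnt3, Wnt9a, Dkk3, Lef1 and Tcf7 every Brg1 cKO library lay below. Without the 2 Brg1 WT libraries that stood apart, 4 genes passed the test: Wnt5a, Wls and Fzd1 were higher and Lef1 was lower.

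**Figure D2:**
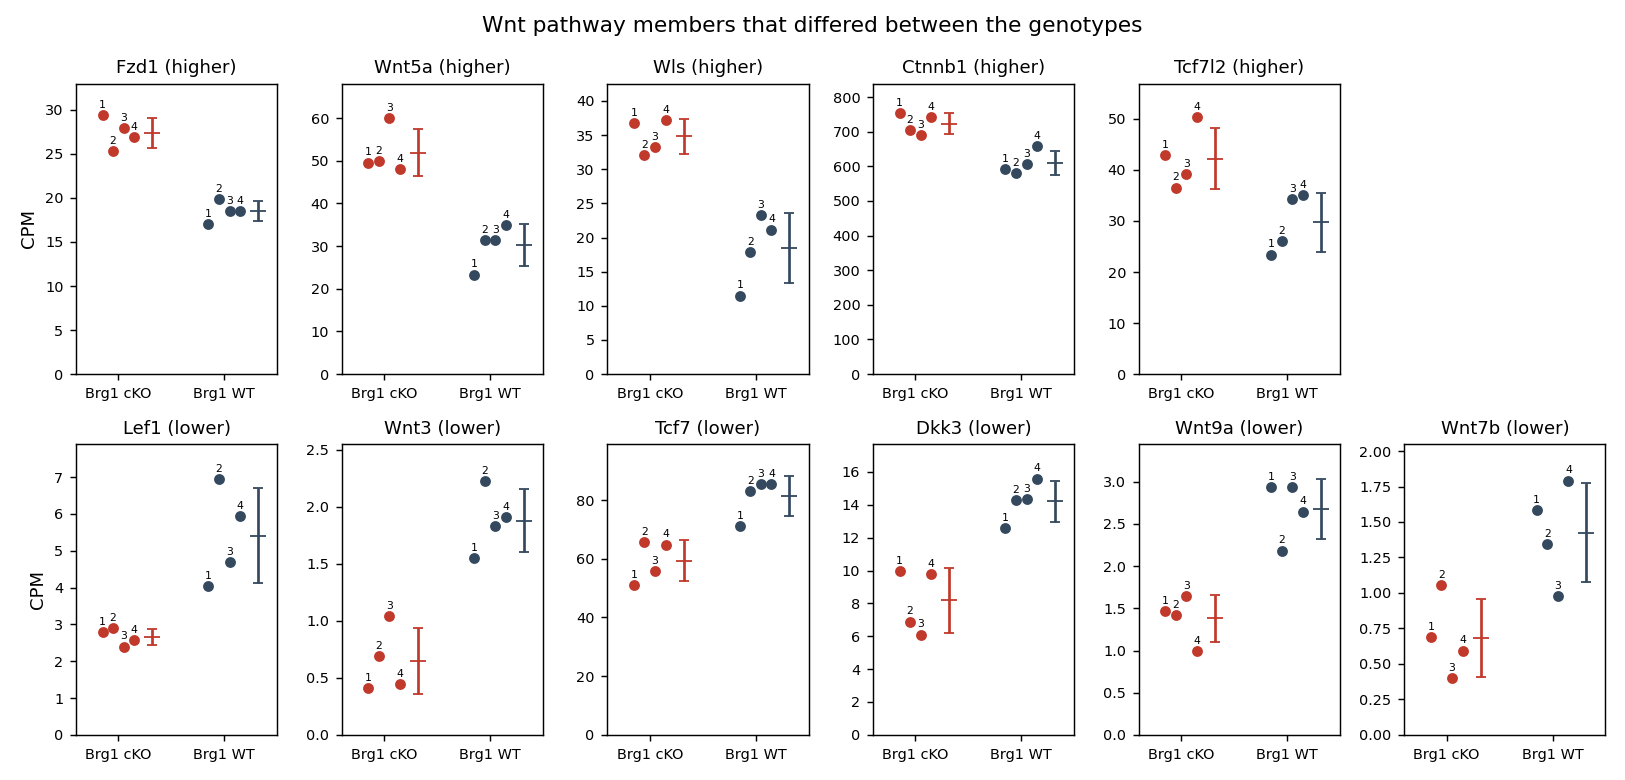
Level in CPM of the 11 genes that differed, one point per library labelled with its replicate number, Brg1 cKO left and Brg1 WT right in each panel, with the mean and SD beside the points. Only in Wnt7b do the points of the genotypes share a range.

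Promoter windows from 250 bases before to 50 bases after the transcription start were found in RefSeq (GRCm38.p6) for 38 of the 58 genes. Windows of 4 genes that changed are shown, a protein of ligand export, a receptor, a TCF/LEF factor and the ligand with the lowest fold change, since each is a step of the pathway where the genotypes differed. They are Wls (chr3:159839400-159839699, plus strand), Fzd1 (chr5:4758167-4758466, minus strand), the first of 4 windows of Lef1 (chr3:131110047-131110346, plus strand) and Wnt3 (chr11:103773925-103774224, plus strand), each 5′ to 3′ along its gene, with capitals for a TCF/LEF core motif.
Wls: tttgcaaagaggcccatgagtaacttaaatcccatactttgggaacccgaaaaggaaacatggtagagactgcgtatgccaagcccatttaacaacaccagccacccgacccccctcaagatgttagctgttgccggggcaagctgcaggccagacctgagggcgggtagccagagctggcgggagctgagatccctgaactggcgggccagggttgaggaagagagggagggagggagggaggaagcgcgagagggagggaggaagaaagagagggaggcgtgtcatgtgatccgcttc
Fzd1: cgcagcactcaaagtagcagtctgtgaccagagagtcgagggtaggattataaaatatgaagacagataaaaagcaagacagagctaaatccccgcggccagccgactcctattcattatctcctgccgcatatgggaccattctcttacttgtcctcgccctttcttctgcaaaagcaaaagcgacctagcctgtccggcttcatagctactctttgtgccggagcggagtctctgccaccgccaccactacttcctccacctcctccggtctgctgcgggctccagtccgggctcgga
Lef1: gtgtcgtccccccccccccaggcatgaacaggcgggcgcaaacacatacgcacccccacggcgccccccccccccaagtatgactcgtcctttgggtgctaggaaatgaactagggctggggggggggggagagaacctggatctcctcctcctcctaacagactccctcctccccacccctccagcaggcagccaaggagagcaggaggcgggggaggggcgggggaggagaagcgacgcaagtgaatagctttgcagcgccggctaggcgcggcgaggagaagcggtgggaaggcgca
Wnt3: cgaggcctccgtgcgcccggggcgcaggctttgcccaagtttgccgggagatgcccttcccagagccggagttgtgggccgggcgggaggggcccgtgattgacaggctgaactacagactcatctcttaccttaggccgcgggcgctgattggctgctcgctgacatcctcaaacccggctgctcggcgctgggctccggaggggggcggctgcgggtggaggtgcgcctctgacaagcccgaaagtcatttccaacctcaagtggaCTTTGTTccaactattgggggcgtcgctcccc

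The TCF/LEF core was searched on both strands as CTTTG followed by 2 bases, each of them A or T. The Wnt3 window held 1 match, 18 bases after the start, and the windows of Wls, Fzd1 and Lef1 held none. Dkk1, Fzd7 and Wnt11 were the other genes with a match, which makes 4 of 38 windows, or 10.5%, against 14.8% of 17492 protein-coding windows. A match describes letters in this window and is not a binding site. Most of the windows, though not all, were rich in CpG dinucleotides. The median was 30 for the 38 genes, with a range of 6 to 58, against 13 over protein-coding windows. Of the 38, 32 lay above the protein-coding median. The windows of Wls, Fzd1, Lef1 and Wnt3 held 11, 16, 18 and 24, all under the median of the 38 genes, and Wls lay under the protein-coding median as well.

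Per kilobase of transcript, β-catenin was the most abundant of the 58 genes, at 228 CPM per kb in Brg1 cKO and 193 CPM per kb in Brg1 WT. Axin1 followed at 49.3 and 50.5 CPM per kb in Brg1 cKO and Brg1 WT. Tcf7 stood at 28.2 CPM per kb in Brg1 cKO and 38.6 CPM per kb in Brg1 WT. The highest ligand was Wnt6 (25.9 and 17.8 CPM per kb in Brg1 cKO and Brg1 WT), the highest receptor Fzd5 (21.4 and 17.3 CPM per kb), and Lgr4 (21.6 and 16.7 CPM per kb) stood far above the other R-spondin receptors. Lef1 was the least abundant TCF/LEF gene, at 0.788 CPM per kb in Brg1 cKO and 1.60 CPM per kb in Brg1 WT.

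**Figure D3:**
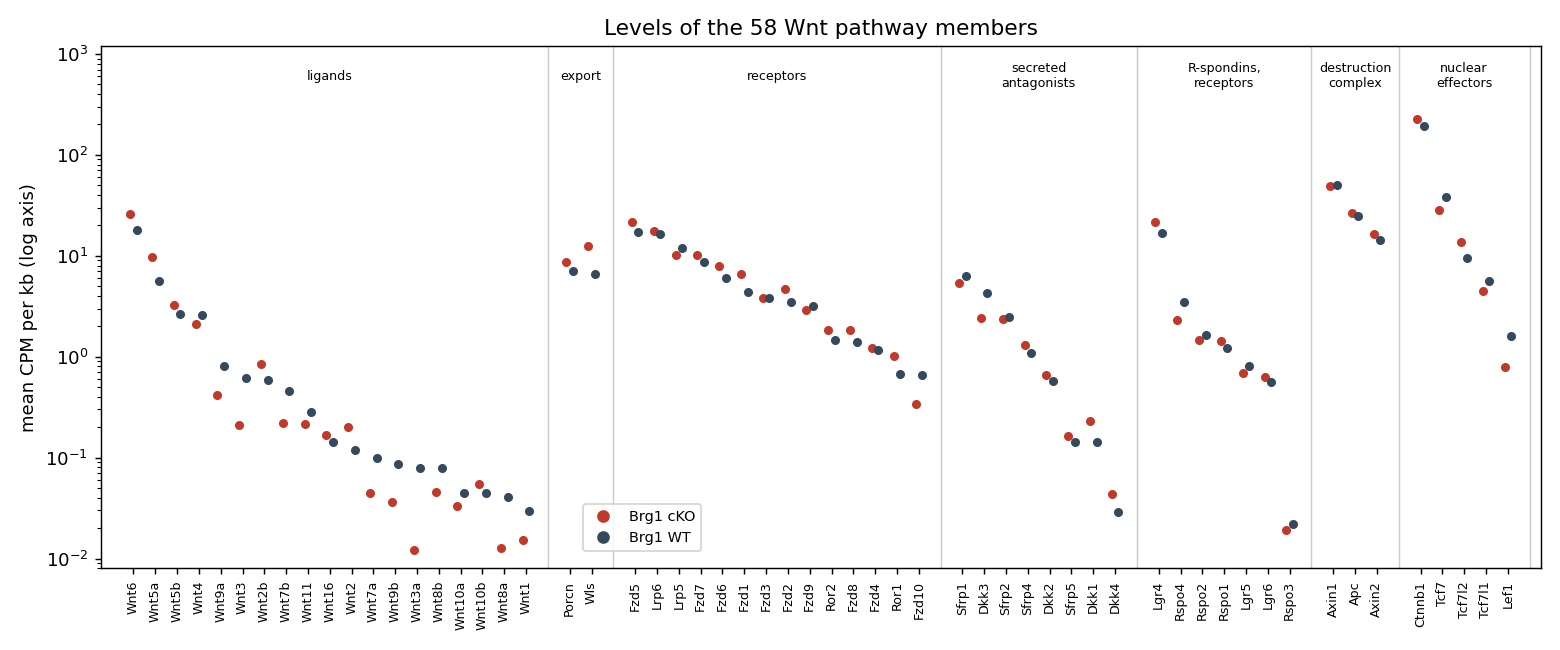
Mean level of each of the 58 genes in CPM per kb of transcript on a log axis, grouped by role and ordered by the Brg1 WT level, Brg1 cKO in red to the left of Brg1 WT in dark blue. Ctnnb1 stands highest at 228 and 193 CPM per kb, and most ligands lie under 1 CPM per kb.

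The ligand set was made up of few transcripts. Wnt6, Wnt5a, Wnt5b and Wnt4 together made up 94.0% ± 2.14 of the summed ligand level per kb in Brg1 cKO and 88.5% ± 3.20 in Brg1 WT (SD, n = 4 each), with overlapping ranges. Of the 9 ligands tested, Wnt5a was higher in Brg1 cKO, Wnt3, Wnt9a and Wnt7b were lower, and 5 did not pass the test.

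Wnt5a, the main ligand of the non-canonical branch, had 49.6, 49.9, 60.1 and 48.1 CPM in Brg1 cKO replicates 1 to 4, against 23.3, 31.5, 31.5 and 34.9 CPM in Brg1 WT replicates 1 to 4. Every Brg1 cKO library lay above every Brg1 WT library, and replicate 3 of Brg1 cKO stood above its group. The level was 1.71-fold higher in Brg1 cKO (log2 fold change 0.78 ± 0.12 SE, edgeR adjusted p = 0.0050).

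Wnt3, a ligand of the canonical branch, had 0.412, 0.692, 1.04 and 0.445 CPM in Brg1 cKO replicates 1 to 4 and 1.55, 2.22, 1.83 and 1.91 CPM in Brg1 WT. The groups did not overlap, and the highest Brg1 cKO value was that of replicate 3. Wnt3 was 2.85-fold lower in Brg1 cKO (log2 fold change -1.51 ± 0.31 SE, edgeR adjusted p = 0.011). This call was lost without Brg1 WT replicates 1 and 2, at a log2 fold change of -1.51 (adjusted p = 0.082).

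Wnt9a, which can act through canonical signalling, had 1.47, 1.42, 1.64 and 0.989 CPM in the 4 Brg1 cKO libraries and 2.94, 2.19, 2.93 and 2.65 CPM in the 4 Brg1 WT libraries. All Brg1 cKO values lay below all Brg1 WT values (log2 fold change -0.95 ± 0.21 SE, edgeR adjusted p = 0.015). Without Brg1 WT replicates 1 and 2 its adjusted p was 0.081. Wnt7b, another canonical ligand, had 0.687, 1.06, 0.401 and 0.594 CPM in Brg1 cKO and 1.59, 1.34, 0.978 and 1.79 CPM in Brg1 WT. Here the highest Brg1 cKO library lay above the lowest Brg1 WT library, and the call stood at the threshold (log2 fold change -1.04 ± 0.32 SE, edgeR adjusted p = 0.049). It was lost when any library but Brg1 cKO replicate 2 was left out, with adjusted p-values of 0.112, 0.109 and 0.089 without Brg1 cKO replicates 1, 3 and 4, and 0.109, 0.093, 0.052 and 0.108 without Brg1 WT replicates 1, 2, 3 and 4.

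Wnt6, the most abundant ligand, varied widely within each genotype. It had 67.0, 47.6, 34.9 and 65.0 CPM in the Brg1 cKO libraries and 24.1, 22.3, 51.1 and 50.1 CPM in the Brg1 WT libraries. The ranges overlapped, with Brg1 WT replicates 1 and 2 lowest, and the difference did not pass the test (log2 fold change 0.54 ± 0.34 SE, edgeR adjusted p = 0.287). Wnt4, a ligand known for ovarian determination in the fetal gonad, had 9.93, 7.78, 7.25 and 10.3 CPM in Brg1 cKO and 9.42, 11.2, 12.1 and 10.9 CPM in Brg1 WT. Its groups overlapped and it was not called (log2 fold change -0.31 ± 0.14 SE, edgeR adjusted p = 0.152). Its share of the summed ligand level per kb was 4.82% ± 0.31 in Brg1 cKO and 8.35% ± 1.68 in Brg1 WT, with no overlap of libraries. The ligand sum itself was higher in Brg1 cKO, at 129 CPM against 94.8 CPM in Brg1 WT (not corrected for length). The share is therefore not a result about Wnt4 alone. Wnt5b, Wnt2b and Wnt11 had log2 fold changes of 0.29, 0.55 and -0.41 and did not pass the test.

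The other 10 ligands were too low to test. Wnt3a, the canonical ligand most used in culture, had 1, 0, 1 and 1 estimated counts in the Brg1 cKO libraries and 8, 3, 9 and 5 in the Brg1 WT libraries. Wnt9b had 2, 8, 3 and 3 estimated counts in Brg1 cKO and 9, 9, 12 and 13 in Brg1 WT. In CPM neither gene overlapped between the genotypes. With no filter on low counts Wnt3a was called by edgeR (adjusted p = 0.037). Wnt2, the highest of the 10 by summed counts, had 43 estimated counts over Brg1 cKO and 30 over Brg1 WT, while Wnt16, Wnt7a and Wnt8b had 14 to 26 over Brg1 cKO and 27.3 to 35 over Brg1 WT. Wnt1, Wnt8a, Wnt10a and Wnt10b had 2 to 9 estimated counts over Brg1 cKO and 8 to 11.7 over Brg1 WT, at or near the limit of detection in both.

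Wls, the carrier that takes Wnt ligands to the cell surface, had the largest rise among the 58 genes in fold. It stood at 36.8, 32.1, 33.3 and 37.2 CPM in Brg1 cKO replicates 1 to 4, against 11.5, 17.8, 23.3 and 21.2 CPM in Brg1 WT replicates 1 to 4. The groups did not overlap, and the spread was wider in Brg1 WT, where replicate 1 was lowest. Wls was 1.89-fold higher in Brg1 cKO (log2 fold change 0.92 ± 0.19 SE, edgeR adjusted p = 0.013). Porcn, the enzyme that adds the lipid, had 16.3 ± 2.95 CPM in Brg1 cKO and 13.3 ± 1.78 CPM in Brg1 WT (SD, n = 4 each) and did not pass the test (log2 fold change 0.30, edgeR adjusted p = 0.181).

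Of the 14 receptors edgeR called 1, Fzd1, and DESeq2 called 4, Fzd1, Fzd6 and Fzd8 as higher and Lrp5 as lower. Fzd1, a Frizzled receptor, had 29.4, 25.3, 28.0 and 26.9 CPM in the Brg1 cKO libraries and 17.1, 19.9, 18.5 and 18.5 CPM in the Brg1 WT libraries. The groups were tight and well apart (1.48-fold, log2 fold change 0.57 ± 0.083 SE, edgeR adjusted p = 0.0037). Fzd1 made up 10.7% ± 0.46 of the summed Frizzled level per kb in Brg1 cKO and 8.83% ± 0.861 in Brg1 WT. The median log2 fold change over the 14 receptors was 0.27, and it was -0.11 when the Sertoli cell markers were taken as the unchanged level.

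Fzd6 and Fzd8, also Frizzled receptors, did not overlap between the genotypes but missed the threshold in edgeR. DESeq2 called both, with adjusted p-values of 0.029 for Fzd6 and 0.019 for Fzd8, and edgeR with RLE factors called Fzd8 (adjusted p = 0.049). With the Sertoli cell markers as the unchanged level Fzd6 was at 0.0027 and Fzd8 at 0.047, and neither was called. With the pan-germ cell markers they were at 0.77 and 0.81, and both were called. Fzd6 had 34.7, 31.4, 29.4 and 37.2 CPM in Brg1 cKO and 20.4, 23.3, 29.3 and 29.0 CPM in Brg1 WT, where the nearest libraries of the genotypes were almost level (log2 fold change 0.38 ± 0.13 SE, edgeR adjusted p = 0.065). Fzd8 had 13.0, 11.6, 10.5 and 9.40 CPM in Brg1 cKO and 7.59, 7.29, 9.32 and 8.87 CPM in Brg1 WT. Its adjusted p in the edgeR test was 0.053, and 0.038 without Brg1 cKO replicate 4 (log2 fold change 0.42 ± 0.14 SE with all libraries). Fzd10 was low, at 1.79, 1.82, 0.481 and 0.346 CPM in Brg1 cKO and 2.63, 1.92, 2.26 and 1.79 CPM in Brg1 WT. Brg1 cKO replicates 3 and 4 lay far below all other libraries, and replicates 1 and 2 close to the lowest Brg1 WT libraries (log2 fold change -0.94 ± 0.48 SE, edgeR adjusted p = 0.184).

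The co-receptors Lrp6 and Lrp5 were not called by edgeR. Lrp6 had 165, 157, 168 and 169 CPM in Brg1 cKO and 152, 162, 152 and 152 CPM in Brg1 WT, which overlap through Brg1 WT replicate 2 (log2 fold change 0.09 ± 0.052 SE, edgeR adjusted p = 0.241). With the Sertoli cell markers as the unchanged level the sign of Lrp6 turned (-0.29, adjusted p = 0.0011), and with the pan-germ cell markers it was at 0.48 (adjusted p = 0.00012). Lrp5 had 37.2, 46.4, 37.5 and 39.8 CPM in Brg1 cKO and 45.4, 47.5, 50.1 and 47.6 CPM in Brg1 WT. Its groups overlapped through Brg1 cKO replicate 2, without which it was called (adjusted p = 0.062 with all libraries and 0.012 without that one). DESeq2 called Lrp5 as lower (adjusted p = 0.049), and with the Sertoli cell markers as the unchanged level it was at -0.62 (adjusted p = 0.00022). With the pan-germ cell markers as the unchanged level the sign of Lrp5 turned, and it was not called. Ror1 and Ror2, the receptors that bind Wnt5a, had log2 fold changes of 0.59 and 0.34 and were not called, although Ror1 was called without Brg1 cKO replicate 4 (adjusted p = 0.030). Of the other Frizzled genes, Fzd2, Fzd5, Fzd7, Fzd4 and Fzd3 had values of 0.44, 0.31, 0.23, 0.07 and 0.02, and Fzd9 of -0.13. Fzd5 was called without Brg1 cKO replicate 2 (adjusted p = 0.033).

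Of the 6 tested genes grouped by symbol as secreted antagonists, Dkk3 was lower. Whether Dkk3 restrained Wnt signalling in these cells was not tested. Dkk3, a divergent member of the Dickkopf family, had 9.98, 6.89, 6.10 and 9.80 CPM in Brg1 cKO and 12.6, 14.3, 14.3 and 15.6 CPM in Brg1 WT. All Brg1 cKO values lay below all Brg1 WT values (1.74-fold lower, log2 fold change -0.80 ± 0.17 SE, edgeR adjusted p = 0.014). The call was lost without Brg1 WT replicates 1 and 2 (adjusted p = 0.080) and with the pan-germ cell markers as the unchanged level (-0.41, adjusted p = 0.064).

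Sfrp1, which binds Wnt ligands outside the cell, had 26.0, 25.6, 26.6 and 14.9 CPM in Brg1 cKO and 15.8, 34.0, 31.0 and 30.2 CPM in Brg1 WT. In each genotype 1 library was low, Brg1 cKO replicate 4 and Brg1 WT replicate 1. These were also the libraries with the lowest sum of 14 peritubular and stromal markers in their genotype, 2306 and 1634 CPM, and the part of those cells in the result was not tested. Sfrp1 did not pass the test (log2 fold change -0.25 ± 0.26 SE, edgeR adjusted p = 0.512). Dkk1, Dkk2, Sfrp2 and Sfrp4, other antagonists of these families, had log2 fold changes of 0.71, 0.19, -0.04 and 0.23 and were not called. Dkk4 had 5 and 4 estimated counts in all over Brg1 cKO and Brg1 WT. Sfrp5 had 32 over Brg1 cKO, of which 25 were in replicate 2, and 31 over Brg1 WT.

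None of the 6 tested R-spondin and Lgr genes was called by edgeR. At an unadjusted p under 0.05 there were 2, Lgr4 and Rspo4, and DESeq2 called 1, Rspo4 (adjusted p = 0.036). Lgr4, the R-spondin receptor with the highest level here, had 111, 82.5, 107 and 134 CPM in Brg1 cKO and 72.8, 75.3, 93.2 and 94.9 CPM in Brg1 WT. Brg1 cKO replicate 2 lay within the Brg1 WT range, and without it Lgr4 was called (adjusted p = 0.104 with all libraries and 0.025 without that one). The log2 fold change of Lgr4 was 0.37 ± 0.15 SE, and it was -0.01 with the Sertoli cell markers as the unchanged level. Rspo4, an R-spondin ligand, had 5.59, 7.69, 3.73 and 4.85 CPM in Brg1 cKO and 7.56, 8.47, 8.95 and 7.98 CPM in Brg1 WT. Its groups overlapped through Brg1 cKO replicate 2 alone (log2 fold change -0.59 ± 0.20 SE, edgeR adjusted p = 0.066, and 0.013 without that library). Rspo1, Rspo2, Lgr5 and Lgr6 had log2 fold changes of 0.22, -0.17, -0.22 and 0.18, and Rspo3 had 6 and 8 estimated counts in all over Brg1 cKO and Brg1 WT.

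The 3 genes of the destruction complex were not called by edgeR or DESeq2, and none had an unadjusted p under 0.05 in edgeR. Apc, a scaffold of the complex, averaged 325 ± 20.7 CPM in Brg1 cKO and 309 ± 9.65 CPM in Brg1 WT (SD, n = 4 each, log2 fold change 0.07, edgeR adjusted p = 0.433). Apc was at -0.31 (adjusted p = 0.0023) with the Sertoli cell markers as the unchanged level and at 0.46 (adjusted p = 0.00027) with the pan-germ cell markers. Axin1, the scaffold that limits the complex, averaged 142 and 146 CPM in Brg1 cKO and Brg1 WT, and was at -0.41 (adjusted p = 0.00020) and 0.35 (adjusted p = 0.00047) under those scalings. Axin2, both a part of the complex and a widely used transcriptional readout of β-catenin, had 65.3, 52.4, 49.8 and 56.8 CPM in Brg1 cKO and 44.8, 43.6, 51.7 and 54.5 CPM in Brg1 WT. The ranges overlapped and the difference did not pass the test (log2 fold change 0.20 ± 0.10 SE, edgeR adjusted p = 0.184), and Axin2 was at 0.60 (adjusted p = 0.0011) with the pan-germ cell markers as the unchanged level. With the Sertoli cell markers as the unchanged level none of the 3 genes had a positive value. The sign of Axin2 thus turned there, and Axin2 was not called.

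Of the 5 nuclear effectors 4 were called, 2 in each direction, in a table where 20.6% of tested genes were called. Lef1 and Tcf7 were lower in Brg1 cKO, whereas Tcf7l2 and Ctnnb1 were higher, Ctnnb1 with a sign that turned when the Sertoli cell markers were taken as the unchanged level. Lef1 had 2.79, 2.89, 2.40 and 2.58 CPM in the Brg1 cKO libraries and 4.04, 6.94, 4.70 and 5.95 CPM in the Brg1 WT libraries. The Brg1 cKO libraries were close together and all below the Brg1 WT libraries (2.03-fold lower, log2 fold change -1.02 ± 0.19 SE, edgeR adjusted p = 0.0091). Tcf7 had 51.1, 65.7, 55.9 and 64.8 CPM in Brg1 cKO and 71.2, 83.0, 85.5 and 85.5 CPM in Brg1 WT. Its groups did not overlap either (1.37-fold lower, log2 fold change -0.45 ± 0.096 SE, edgeR adjusted p = 0.013). With the pan-germ cell markers as the unchanged level Tcf7 was at -0.06 (adjusted p = 0.589), and without Brg1 WT replicates 1 and 2 its adjusted p was 0.051.

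Tcf7l2 had 42.8, 36.5, 39.2 and 50.4 CPM in Brg1 cKO and 23.4, 26.1, 34.3 and 35.0 CPM in Brg1 WT. The groups did not overlap, with Brg1 cKO replicate 2 just above Brg1 WT replicate 4 (1.42-fold higher, log2 fold change 0.51 ± 0.15 SE, edgeR adjusted p = 0.041). The call was lost without Brg1 cKO replicates 1, 3 or 4, at adjusted p-values of 0.095, 0.067 and 0.082, and without Brg1 WT replicates 1 or 2, at 0.086 and 0.0996. With the Sertoli cell markers as the unchanged level it was at 0.13 (adjusted p = 0.504).

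Ctnnb1 had 753, 705, 689 and 742 CPM in Brg1 cKO and 592, 581, 607 and 659 CPM in Brg1 WT. All Brg1 cKO libraries lay above all Brg1 WT libraries by a modest margin (1.19-fold higher, log2 fold change 0.25 ± 0.066 SE, edgeR adjusted p = 0.030), and the sign turned with the Sertoli cell markers as the unchanged level (-0.13, adjusted p = 0.123). The call was lost without Brg1 cKO replicates 1 or 4, at adjusted p-values of 0.088 and 0.056, and without Brg1 WT replicates 1, 2 or 3, at 0.074, 0.083 and 0.072. Tcf7l1, mostly a repressor among the TCF/LEF proteins, averaged 11.2 ± 1.61 CPM in Brg1 cKO and 13.7 ± 3.26 CPM in Brg1 WT (SD, n = 4 each) and was not called (log2 fold change -0.30, edgeR adjusted p = 0.274).

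The balance among the TCF/LEF genes does not depend on how libraries are scaled, but can depend on the mix of cells. The part of that mix was not tested. As a description, the balance among these genes differed between the genotypes. As a share of their summed level per kb, Tcf7 made up 55.0%, 64.4%, 59.6% and 59.9% in the Brg1 cKO libraries and 73.1%, 70.9%, 67.9% and 67.9% in the Brg1 WT libraries. Tcf7l2 made up 31.3%, 24.3%, 28.4% and 31.6% in Brg1 cKO and 16.3%, 15.1%, 18.5% and 18.9% in Brg1 WT. Neither share overlapped between the genotypes. Tcf7 was at a log2 fold change of -0.06 with the pan-germ cell markers as the unchanged level, and Tcf7l2 at 0.13 with the Sertoli cell markers. In CPM, not corrected for length, the ratio of Tcf7l2 to Tcf7 was 0.718 ± 0.122 in Brg1 cKO and 0.364 ± 0.049 in Brg1 WT (SD, n = 4 each). That of Tcf7l2 to Lef1 was 16.0 ± 2.86 in Brg1 cKO and 5.69 ± 1.46 in Brg1 WT. The ratio of Wnt5a to Wnt4 was 6.10 ± 1.64 in Brg1 cKO and 2.78 ± 0.321 in Brg1 WT. None of these ratios overlapped between the genotypes. For Tcf7l2 against Tcf7 and against Lef1 this follows from the genes' own levels, which lay apart in opposite directions. The ratios with Tcf7l2 thus restate those calls and add no further evidence. In the ratio of Wnt5a to Wnt4, Wnt5a was itself called and Wnt4 was not, so that ratio is no separate evidence either. The ratio of Wnt5a to Wnt6 was 1.06 ± 0.463 in Brg1 cKO and 0.923 ± 0.359 in Brg1 WT, and that of Wls to Porcn was 2.18 ± 0.361 in Brg1 cKO and 1.39 ± 0.370 in Brg1 WT, both with overlapping ranges.

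**Figure D4:**
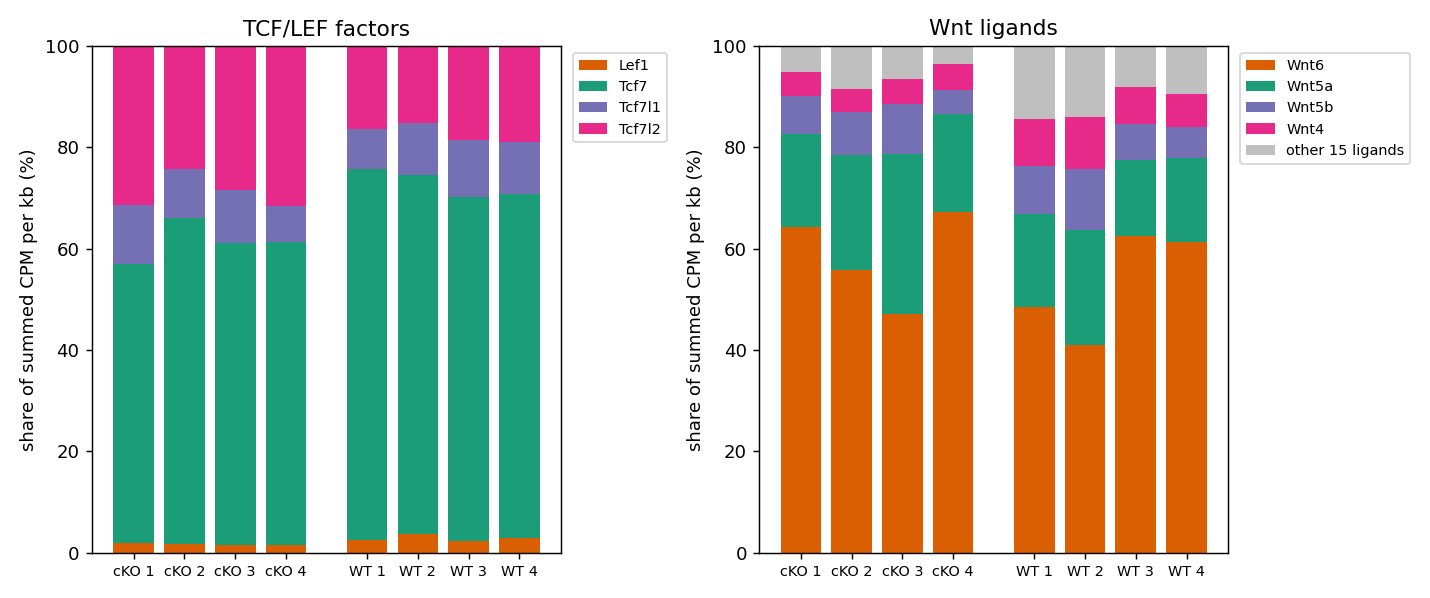
Share in percent of the summed CPM per kb taken by each TCF/LEF gene (left) and by the 4 most abundant Wnt ligands (right), one bar per library, Brg1 cKO left of Brg1 WT. Tcf7l2 takes 24.3% to 31.6% of the TCF/LEF sum in Brg1 cKO and 15.1% to 18.9% in Brg1 WT, while the share of Wnt6 among ligands varies within both genotypes.

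Of 58 other genes of the pathway, outside the symbols chosen above, 56 were tested, and 5 were higher and 4 lower in Brg1 cKO with edgeR, or 16.1%, against 20.6% of all tested genes. Their median log2 fold change was -0.0064. Nkd1 and Nkd2, feedback inhibitors that bind Dishevelled and are induced by Wnt signalling in many tissues, were both lower. Nkd2 had 5.42, 5.29, 4.62 and 6.50 CPM in Brg1 cKO and 8.77, 9.79, 11.2 and 10.7 CPM in Brg1 WT (log2 fold change -0.89 ± 0.14 SE, edgeR adjusted p = 0.0047). Nkd1 had 15.6, 15.8, 15.9 and 16.5 CPM in Brg1 cKO and 22.5, 23.7, 25.3 and 21.1 CPM in Brg1 WT (log2 fold change -0.54 ± 0.085 SE, edgeR adjusted p = 0.0048). Both genes had groups that did not overlap, and the Nkd1 libraries of Brg1 cKO were nearly equal. With the pan-germ cell markers as the unchanged level Nkd1 was at -0.15 (adjusted p = 0.154), and Nkd2 was still called.

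Ptk7 and Prickle1, a co-receptor and a core protein of the planar polarity branch, went opposite ways. Ptk7 averaged 61.2 ± 5.10 CPM in Brg1 cKO and 85.7 ± 3.28 CPM in Brg1 WT (SD, n = 4 each, log2 fold change -0.49 ± 0.069 SE, edgeR adjusted p = 0.0034), and with the pan-germ cell markers as the unchanged level it was at -0.10 (adjusted p = 0.246). Prickle1 averaged 99.2 ± 8.25 CPM in Brg1 cKO and 76.7 ± 3.83 CPM in Brg1 WT (log2 fold change 0.37 ± 0.071 SE, edgeR adjusted p = 0.0093), and was at -0.01 with the Sertoli cell markers as the unchanged level. Tnks2, a tankyrase that marks Axin for degradation, and Aes, a short member of the Groucho family, were higher, at log2 fold changes of 0.19 and 0.37, and with the Sertoli cell markers as the unchanged level they were at -0.18 and -0.0043. Amer1, which brings Apc to the membrane, was the fifth gene that rose (log2 fold change 0.40, edgeR adjusted p = 0.042), and of the 8 libraries left out in turn only the omission of Brg1 cKO replicate 2 kept its call, the other adjusted p-values being 0.053 to 0.114. With the Sertoli cell markers as the unchanged level Amer1 was at 0.02 (adjusted p = 0.906). Tle3, a Groucho co-repressor that binds TCF/LEF proteins, was lower (-0.28, edgeR adjusted p = 0.037, and 0.11 with the pan-germ cell markers as the unchanged level). Its adjusted p was 0.103 and 0.093 without Brg1 cKO replicates 1 and 3, and 0.065, 0.100 and 0.082 without Brg1 WT replicates 2, 3 and 4. Aes lost its call without Brg1 cKO replicates 1 or 3 (adjusted p = 0.086 and 0.078) and without Brg1 WT replicates 1 or 2 (0.077 and 0.082). Tnks2 lost its call without Brg1 cKO replicates 1 or 3 (adjusted p = 0.082 and 0.071) and without Brg1 WT replicates 1, 2 or 3 (0.070, 0.083 and 0.072).

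Of 7 genes known as transcriptional targets of the pathway in other tissues, Id2, an inhibitor of basic helix-loop-helix factors, was higher in Brg1 cKO. It averaged 132 ± 16.9 CPM in Brg1 cKO and 98.3 ± 7.92 CPM in Brg1 WT (SD, n = 4 each, log2 fold change 0.42 ± 0.097 SE, edgeR adjusted p = 0.017, and 0.0502 without Brg1 cKO replicate 1). With the Sertoli cell markers as the unchanged level Id2 was at 0.05 (adjusted p = 0.725), and without Brg1 WT replicates 1 and 2 its adjusted p was 0.151. The other targets did not pass the test and stood on both sides. Myc had 20.8, 20.8, 17.9 and 11.1 CPM in Brg1 cKO and 6.34, 12.1, 13.6 and 7.61 CPM in Brg1 WT, overlapping through Brg1 cKO replicate 4 (log2 fold change 0.83 ± 0.28 SE, edgeR adjusted p = 0.066). Sp5, a direct target in the mouse embryo, averaged 1.08 CPM in Brg1 cKO and 2.42 CPM in Brg1 WT (log2 fold change -1.18, edgeR adjusted p = 0.180). Ccnd1 and Tbx3 had log2 fold changes of -0.29 and -0.44, and Cd44 and Tnfrsf19 of 0.62 and 0.98.

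The markers of other cell types moved beside these genes. The median log2 fold change was 0.38 over the Sertoli cell markers and -0.39 over the pan-germ cell markers. It was -1.27 over the 9 tested pachytene and spermatid markers, of which 6 were lower, and 0.67, 0.51, 0.43 and 0.36 over the Leydig cell, macrophage, peritubular and stromal, and endothelial markers. Of the 11 genes that changed, Wnt3, Wnt5a and Wls had log2 fold changes outside the range of these medians. Single markers spread more widely, from -2.16 among the pachytene and spermatid markers to 1.43 among the Leydig cell markers. All 11 genes lay within that range. Of 14 peritubular and stromal markers 2 were higher and 1 lower, with sums of 2306 to 3755 CPM in Brg1 cKO and 1634 to 2781 CPM in Brg1 WT. Of 10 Leydig cell markers 2 were higher, with sums of 61.8 to 109 CPM in Brg1 cKO and 56.0 to 66.2 CPM in Brg1 WT. Of 7 endothelial and 8 macrophage markers none was called by edgeR or DESeq2 and none had an unadjusted p under 0.05, with sums of 163 to 402 CPM and 33.1 to 63.0 CPM in Brg1 cKO, against 157 to 250 CPM and 38.6 to 50.6 CPM in Brg1 WT. No marker of these lists was at 0 in all libraries. The part of these cells in the Wnt pathway results was not tested, and it is not known from these libraries which cells carried each transcript.

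Taking the median of either marker list as the unchanged level moved the median of all genes by -0.38 for the Sertoli cell list and by 0.39 for the pan-germ cell list. Wnt5a, Wls and Lef1 passed the test under both, with log2 fold changes of 0.40 and 1.17 for Wnt5a, 0.54 and 1.31 for Wls, and -1.40 and -0.63 for Lef1. Wnt3 and Wnt9a also passed under both. Fzd1, Tcf7l2 and Ctnnb1 passed with the pan-germ cell list and not with the Sertoli cell list, where Fzd1 was at 0.19 (adjusted p = 0.084). Tcf7, Dkk3 and Wnt7b passed with the Sertoli cell list and not with the pan-germ cell list.

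**Figure D5:**
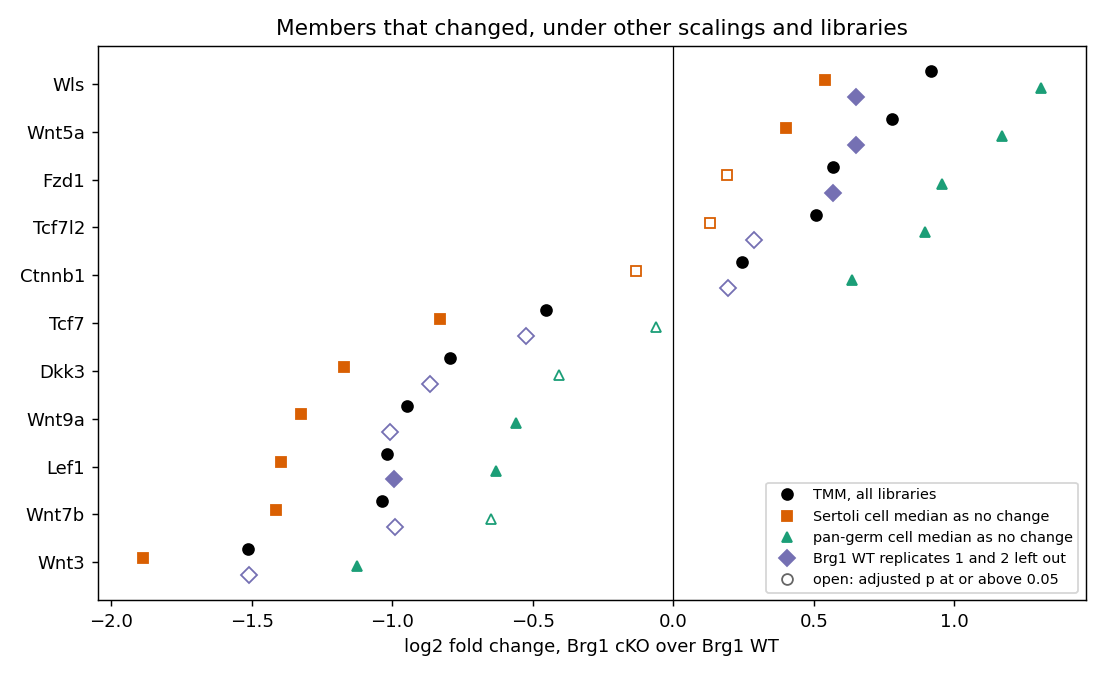
Log2 fold change, Brg1 cKO over Brg1 WT, of the 11 genes that differed, with all libraries and TMM scaling, with the Sertoli cell or the pan-germ cell marker median as the unchanged level, and without Brg1 WT replicates 1 and 2; open symbols have an adjusted p at or above 0.05. Wls, Wnt5a and Lef1 are filled under every scaling and library set shown, and Ctnnb1 falls on the other side of 0 with the Sertoli cell markers.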

How the data were processed

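Trizol-extracted RNA of frozen testis cells was made into stranded mRNA libraries, per the labels' protocols. The table the authors deposited holds estimated counts by gene symbol, scaled for neither depth nor length. The submitters' processing notes name kallisto 0.42.5, the build mm9 and edgeR. The annotation and the summing to symbols are not stated in the sources used here, so genes that share sequence may share counts. Because 49.4% of values were not whole (tolerance 1e-6), counts were rounded before testing. Groups and replicate numbers came from the sample titles.

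Genes were kept with filterByExpr by genotype, leaving 16059, scaled with TMM and tested with edgeR 4.0.16 (R 4.3.3, robust quasi-likelihood fit with genotype as its term). Benjamini-Hochberg adjustment ran over all tested genes, with a threshold of 0.05. Each standard error is the size of the log2 fold change over the root of its F statistic. CPM are on TMM-scaled totals. CPM per kb used the median length of basic protein-coding transcripts in GENCODE vM21, matched by symbol for all 58 genes. The test was tried on simulated data first. No 2 libraries agreed within sampling noise, with a lowest chi-square per degree of freedom of 21.5. Depth and the number of libraries limit the precision of low genes.

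Alternatives were DESeq2 1.42.0, RLE and upper-quartile scaling, marker medians as the unchanged level, other filters, libraries left out and a replicate block. The members and gene lists were chosen with earlier results of these data known. Genes were named by rule: every member that was called, did not overlap at a mean of 1 CPM or more, or was the most abundant of its role, and the 4 other pathway genes with the smallest adjusted p in each direction. Further genes were named after their values were seen.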

Additional observations from a re-analysis of the deposited data

Results flagged for a closer look

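In 4 of 54 groups of 4 libraries, over 27 genes, 1 library lay apart from the other 3 by Dixon's test. Chance gives about 1 in 20 groups. Wnt5a had 60.1 CPM in Brg1 cKO replicate 3, against 48.1 to 49.9 CPM in the other Brg1 cKO libraries, and its log2 fold change without that library was 0.70 (edgeR adjusted p = 0.016). Lrp6 had 162 CPM in Brg1 WT replicate 2, where replicates 1, 3 and 4 had 152.0 to 152.4 CPM. Sfrp1 had 14.9 CPM in Brg1 cKO replicate 4, against 25.6 to 26.6 CPM in the other Brg1 cKO libraries. Ptk7 had 68.7 CPM in Brg1 cKO replicate 2, against 57.6 to 59.4 CPM in the other Brg1 cKO libraries, all below the Brg1 WT libraries.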

How the results depend on the processing

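Of the 58 genes, 11 passed the test. The count was 15 with DESeq2, 11 with RLE factors, upper-quartile factors, no filter or a filter of 1 CPM in 4 libraries, and 8 to 15 when each library was left out in turn. It was 18 with the Sertoli cell median as no change (2 higher, 16 lower), 26 with the pan-germ cell median as no change (23 higher, 3 lower), and 4 without Brg1 WT replicates 1 and 2. Over all genes the count was 3312, against 8547 (72 higher, 8475 lower), 9586 (9069 higher, 517 lower) and 438 (96 higher, 342 lower) under those 3 settings. It was 1608 to 3477 with each library left out in turn, falling to 1608, 1881, 2037, 1777 and 2135 without Brg1 cKO replicates 1 and 3 and Brg1 WT replicates 1, 2 and 3. For the other pathway genes the count was 9, and 33, 36 and 3 under those 3 settings, 19 with DESeq2 and 4 to 12 with each library left out. It was 4 without Brg1 cKO replicate 1 and 5 without replicate 3. Settings with fewer libraries have fewer degrees of freedom; otherwise the cause was not tested.

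Of the 45 tested members 27 had a positive log2 fold change in the main test. The number was 11 with the Sertoli cell median as no change and 36 with the pan-germ cell median. The turns of sign listed next are only those of the genes named by rule. With the Sertoli cell median as no change the sign turned for Lrp6 (-0.29), Lgr4 (-0.0059), Apc (-0.31), Ctnnb1 (-0.13), Prickle1 (-0.0055), Aes (-0.0043) and Tnks2 (-0.18). Among the same genes, with the pan-germ cell median it turned for Sfrp1 (0.14) and Tle3 (0.11). Wnt5a, Wls and Lef1 kept their call in each of 17 alternatives, at log2 fold changes of 0.40 to 1.17, 0.54 to 1.31 and -1.40 to -0.63. With a replicate block 9 of the 58 genes, 6 of the other pathway genes and 1914 of all genes passed, and the calls of Wnt7b and Ctnnb1 were lost. Same-numbered libraries of the genotypes deviated together with correlations of -0.21, 0.13, -0.37 and 0.15, and 2 of the 4 numbers matched their own number best, so the numbers were not taken as pairs.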

Other observations

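Frzb, a secreted frizzled-related protein whose symbol lies outside those chosen, varied widely within both genotypes, at 24.8, 25.4, 78.0 and 118 CPM in Brg1 cKO replicates 1 to 4 and 48.0, 75.8, 107 and 156 CPM in Brg1 WT replicates 1 to 4. The ranges overlapped and the difference did not pass the test (log2 fold change -0.66 ± 0.62 SE, edgeR adjusted p = 0.480). Znrf3, a ligase that removes Frizzled receptors from the surface, was nearly level, at 66.3 CPM in Brg1 cKO and 66.6 CPM in Brg1 WT (log2 fold change -0.01, edgeR adjusted p = 0.962).

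Fzd10 had 1.79 and 1.82 CPM in Brg1 cKO replicates 1 and 2 and 0.481 and 0.346 CPM in replicates 3 and 4. Tnfrsf19 likewise had 4.44 and 5.14 CPM in Brg1 cKO replicates 1 and 2 and 1.60 and 0.940 CPM in replicates 3 and 4, against 1.05 to 1.93 CPM in Brg1 WT. The split of these Brg1 cKO libraries was seen after their values were known and was not tested.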
